A study of Mus musculus with 2 samples.

Results

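Stellate cells and fibroblasts are the collagen-making cells of the liver, and they were present as a small minority in 2 libraries of sorted, fixed liver cells from mice with chemically induced fibrosis. They were picked by 6 marker genes: Dcn (decorin, a small matrix proteoglycan), Lrat (the enzyme that esterifies retinol for storage), Reln (reelin, a secreted glycoprotein), Col1a1 and Col3a1 (fibrillar collagen chains) and Colec11 (a secreted collectin). Among cells with 1000 to 4500 detected genes and at most 5% of their transcript counts from mitochondrial genes, the 250 with the highest share of counts from these 6 genes were taken as members. They were 250 of 11927 cells in that window and of 39559 cell barcodes in all.

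The animals were male p16-Tom mice that received carbon tetrachloride (CCl4), a hepatocyte toxin, for 4 weeks together with tamoxifen. In this strain tamoxifen lets cells that are transcribing p16Ink4a, a cell cycle inhibitor, switch on the red fluorescent protein tdTomato for good, through a CreERT2 under p16Ink4a control and a floxed reporter in Rosa26, both heterozygous. Liver pieces were fixed in formaldehyde before they were dissociated, and cells positive for a nuclear and a mitochondrial dye were sorted as Tom- or Tom+ hepatocytes, so the cells described here passed a sort aimed at another cell type. Both groups shared the CCl4 and tamoxifen treatment, and no untreated library was analysed here. Each group was 1 library, the number of mice behind it was not stated and cells carried no animal label, so no test between groups was possible and every interval given here covers counting error only.

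Hepatic stellate cells lie between hepatocytes and sinusoidal endothelium, where at rest they store vitamin A as retinyl esters and secrete growth factors such as HGF. On injury they lose this programme and become contractile myofibroblasts that secrete fibrillar collagen, the process known as activation. Fibroblasts around the portal tracts and veins also make collagen, and they differ from stellate cells in having no retinoid store.

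Of the members, 158 came from the Tom- and 92 from the Tom+ library. This was 1.82% of the Tom- cells in the window (95% Clopper-Pearson interval 1.55 to 2.13) and 2.83% of the Tom+ cells (2.29 to 3.46). Of all barcodes in each library, the members were instead 0.680% (Tom-) and 0.563% (Tom+), so which library held more depended on the denominator. Because the sort and the gene window decide which cells enter, neither share is the abundance of these cells in the liver.

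The libraries held 23220 (Tom-) and 16339 (Tom+) barcodes, with 681279005 and 715333889 unique molecular identifiers (UMIs, 1 per counted molecule). The members summed to 629144 UMIs in Tom- and 334850 in Tom+. A member had a median of 3435 UMIs in Tom- (1478 to 19265) and 3250 in Tom+ (1625 to 10155), against 10608 and 9492.5 in the other cells of the window. The libraries shared 503 barcode sequences, and 3 members carried a barcode that also occurred in the other library, but no barcode was a member in both.

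The share that defined membership ran from 5.93% of UMIs in the first cell to 0.5993% in the last, and the first cell left out had 0.5986%, so there was no gap at the edge. The median was 0.903% in members and 0 in the other cells of the window. Collagens supplied 66.9% of these UMIs over all members, and from 4.76% to 100% in single members. At rank 500 the share was 0.255% and at rank 1000 it was 0.0612%.

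The genes of the rule were described without a test, since they chose the cells. Levels are given as CPM, the UMIs of a gene per 1000000 of the summed UMIs of a group of cells. Col3a1 stood at 4342 CPM in Tom- and 4426 CPM in Tom+ members, and Col1a1 at 2945 and 3007 CPM. Dcn stood at 1566 and 2058 CPM, Reln at 723 and 974 CPM, Colec11 at 865 and 932 CPM and Lrat at 165 and 248 CPM. All 6 were higher in Tom+, by 0.03 to 0.58 on the log2 scale. Each gene was read by its own short probes, so levels of different genes cannot be ranked against each other.

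The cell type label was checked against markers that the rule did not use. Hand2 and Lhx2, transcription factors of the stellate lineage, stood at 676 and 113 CPM in Tom- and at 830 and 203 CPM in Tom+ members, from 4.74 to 6.21 above the endothelial set on the log2 scale. These 2 belong to a list of 15 identity factors. Of 12 tested against the endothelial set only 5 were 2-fold higher in members and 2 lower, beside 6.55% and 7.91% of all genes. The list took 0.229% of UMIs in Tom- and 0.294% in Tom+ members, and 0.150% and 0.175% in the endothelial set. The 9 smooth muscle markers gave 58 UMIs in Tom- and 16 in Tom+. They took 0.00922% and 0.00478% of UMIs in members, against 0.000249% and 0.000240% in the other window cells. Cnn1, Actg2, Pln and Rergl among them were at 0, but gave only 17, 10, 3 and 0 UMIs in the whole series, so their absence says little. Of 8 mesothelial markers Msln, Gpm6a, Lrrn4, Upk1b and Muc16 were at 0 (151 to 405 UMIs each in the whole series). The mesothelial list still took 0.00890% and 0.0102% of UMIs in members, against 0.000928% and 0.00102% in the other window cells, and Wt1 supplied 54 of its 56 UMIs in Tom- and 33 of 34 in Tom+, at 5.58 and 5.86 above the other window cells (log2). The 7 bile duct markers gave 12 and 5 UMIs in all. Of the 12 portal fibroblast markers, Thy1 and Gli1 were at 0 (278 and 29 UMIs in the whole series), and Gsn (gelsolin, an actin-severing protein), Dpt (dermatopontin) and Eln (elastin) supplied most of the signal. The portal fibroblast list took 0.132% and 0.120% of UMIs in members, against 0.00348% and 0.00354% in the other window cells.

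RNA of other liver cells was present in the members. The 10 hepatocyte genes, such as Alb (albumin), made up 9.03% of UMIs in Tom- members (3.43 to 21.2 per cell) and 7.50% in Tom+ members (3.20 to 16.6 per cell). The same genes made up 7.29% and 6.37% in a reference set of endothelial cells, and 8.63% and 7.36% in a set of Kupffer cells, the liver's resident macrophages. In the window cells outside members and both sets, mostly hepatocytes, they made up 15.7% and 14.8%. The reference sets were chosen like the members, as the 250 window cells richest in endothelial or Kupffer genes, and the 5 cells that fell into more than 1 of the sets were left out of the reference sets. They held 110 and 165 Tom- cells and 138 and 80 Tom+ cells. The members also carried 0.0955% and 0.0502% of endothelial genes, all 11 of which were detected, and 0.187% and 0.124% of the 8 Kupffer genes, which were likewise all detected. No doublets were removed and no doublet caller was run.

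**Figure D1:**
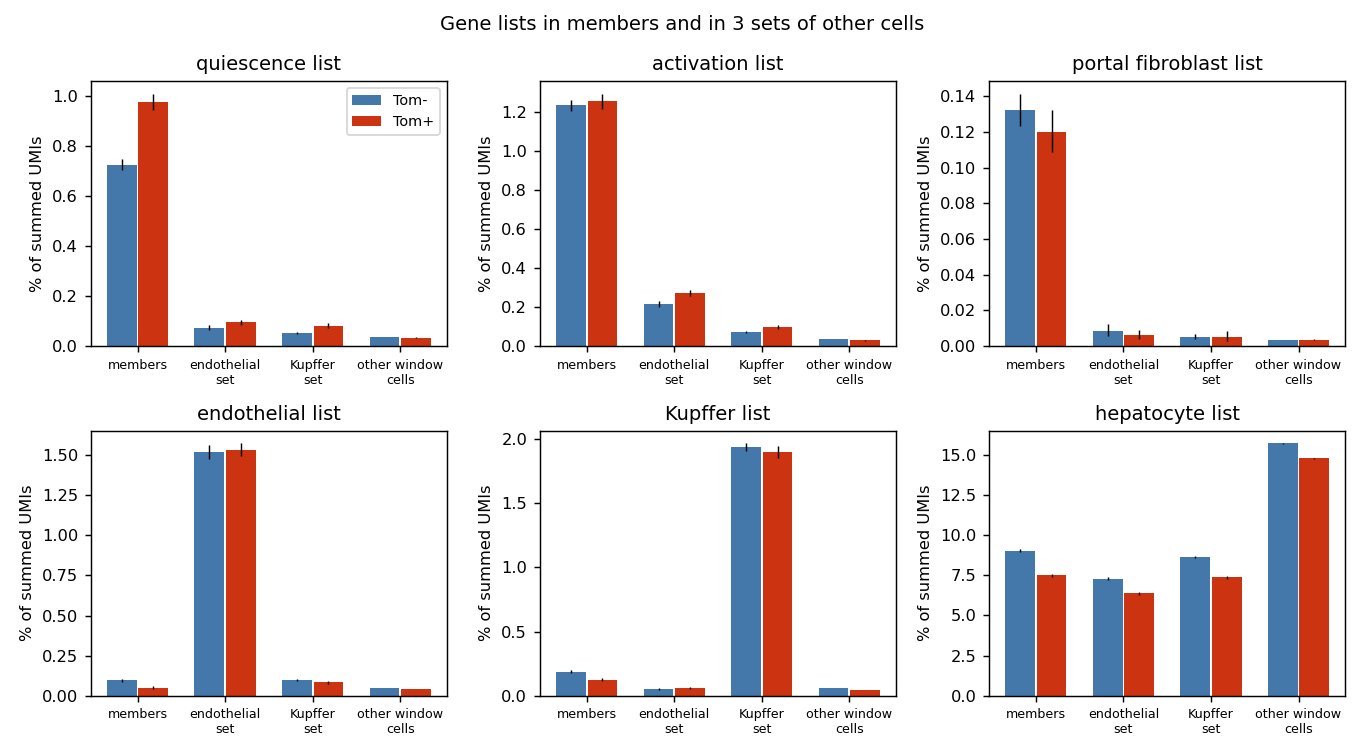
Share of summed UMIs (vertical axes, percent) taken by 6 gene lists in the members, the endothelial set, the Kupffer set and all remaining window cells, in the Tom- (blue) and Tom+ (red) libraries. Bars start at 0 and black lines are exact 95% Poisson intervals. The quiescence and activation lists stand high in members, with 0.725% and 1.236% in Tom-, and the hepatocyte list takes 9.03% there.

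Across all genes the members stood apart from the other cells of the window, which is a description because the rule used that contrast. Of 9620 genes measured well enough, 2286 (23.8%) were at least 2-fold higher in members in both libraries and 276 (2.87%) at least 2-fold lower, with a median log2 difference of 0.47 in Tom- and 0.50 in Tom+. Among genes of at least 50 CPM, the 20 with the largest difference included Hpca (hippocalcin, a neuronal calcium sensor), Dpep1 (a membrane dipeptidase), Svep1 (a large adhesion protein), Dpt, Mrc2 (a collagen uptake receptor), Ccl19 (a chemokine that attracts lymphocytes and dendritic cells) and Pdgfra (a platelet-derived growth factor receptor of fibroblasts). Hpca was at 164 CPM in Tom- and 185 CPM in Tom+ members, 7.32 and 7.98 above the other window cells on the log2 scale. Against the endothelial set 476 of 7272 genes (6.55%) were 2-fold higher and 575 (7.91%) 2-fold lower. Against the Kupffer set 700 of 6964 (10.1%) were higher and 663 (9.52%) lower.

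Genes of both the resting and the activated programme took larger shares of UMIs in members than in the other sets of cells. For rest, 23 genes were followed and named the quiescence list. For activation, 31 genes of matrix, contraction and remodelling formed the activation list. Neither list contained a gene of the rule, although genes of the same cell type chose the members. The quiescence list took 0.725% of UMIs in Tom- members (95% interval 0.705 to 0.747) and 0.975% in Tom+ members (0.942 to 1.01). The activation list took 1.24% in Tom- (1.21 to 1.26) and 1.26% in Tom+ (1.22 to 1.30). There were 0.587 quiescence UMIs per activation UMI in Tom- and 0.775 in Tom+.

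Single members varied far more than the library sums differed. The quiescence share had a median of 0.664% in Tom- members (0 to 2.10) and 0.915% in Tom+ members (0.156 to 2.39). The activation share had a median of 1.12% in Tom- (0.0553 to 4.80) and 1.17% in Tom+ (0.366 to 6.60). The libraries overlapped over nearly the whole range of both measures. A Tom- member had transcripts of a median of 11 of the 23 quiescence genes and 10 of the 31 activation genes, and a Tom+ member of 12 and 9. Transcripts of both lists were found in 156 of 158 Tom- and 92 of 92 Tom+ members, and the other 2 Tom- members had no quiescence UMI. Single UMIs of these lists are common in other cells too, since 7157 of 8517 other window cells of Tom- had a quiescence UMI and 7068 an activation UMI at a median of 10608 UMIs, so detection alone does not separate members from them.

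**Figure D2:**
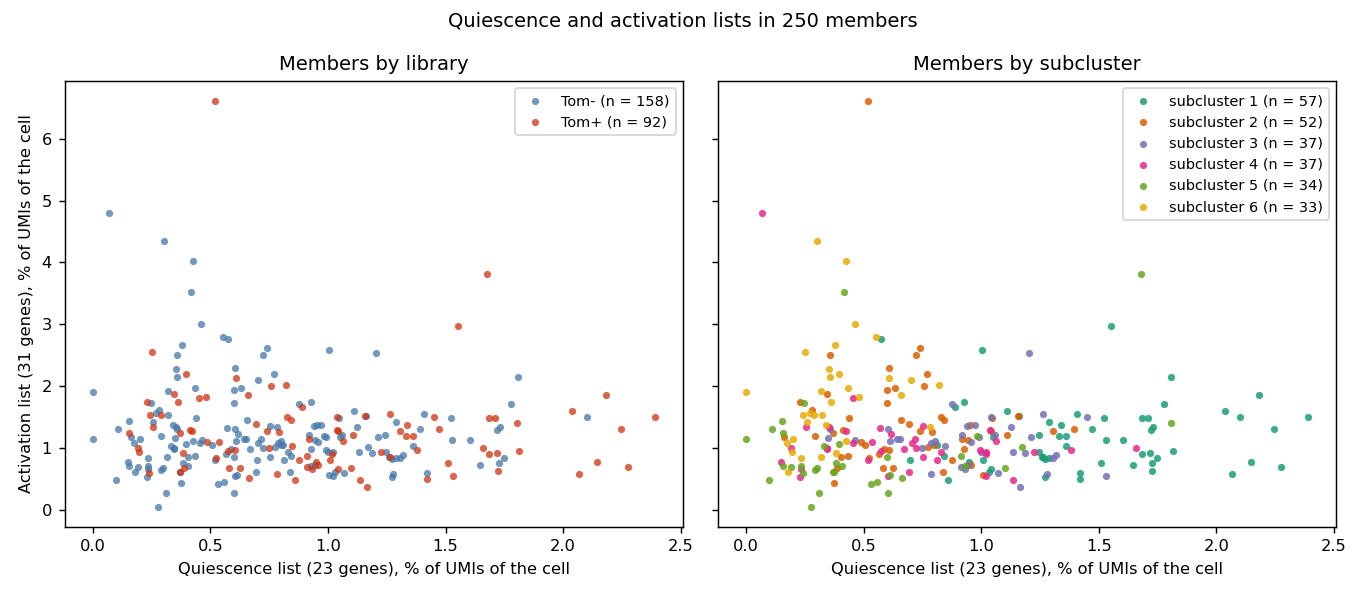
Each point is 1 of the 250 members, placed by the percent of its UMIs from the 23 quiescence genes (horizontal axis) and from the 31 activation genes (vertical axis), coloured by library on the left and by subcluster on the right. The libraries overlap, with medians of 0.664% and 0.915% for quiescence; subcluster 1 lies to the right and most members of subcluster 6 lie to the left.

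Of the 23 quiescence genes, 20 were tested against the other window cells and all 20 were at least 2-fold higher in members of both libraries, beside 23.8% of all genes. The median difference was 4.72 in Tom- and 5.24 in Tom+ on the log2 scale. Against the endothelial set 18 of 19 were higher, beside 6.55% of all genes, and the other was Hgf. Because the members were chosen by genes of the same cell type, these counts describe the cells and are no test.

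Secreted proteins made up a large part of the quiescence UMIs. Sod3, the extracellular superoxide dismutase, was at 1146 CPM in Tom- (721 UMIs in 131 cells) and 1538 CPM in Tom+ (515 UMIs in 81 cells). Ecm1, a secreted matrix protein that holds TGF-beta in its latent form, was at 1130 CPM and 1601 CPM. Hgf, the growth factor for hepatocytes, was at 739 CPM and 947 CPM. These 3 genes supplied 41.6% of the quiescence UMIs in Tom- and 41.9% in Tom+, and each was higher in Tom+.

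The other resting genes fell into receptors, regulators and secreted proteins. Among receptors and signalling proteins, Pth1r (the parathyroid hormone receptor) was at 356 CPM in Tom- and 529 CPM in Tom+. Vipr1 (a receptor for vasoactive intestinal peptide) was at 310 and 403 CPM, and Gucy1a1 (a subunit of the nitric oxide receptor) at 326 and 445 CPM. Ngfr (the low-affinity nerve growth factor receptor) was at 110 and 108 CPM. The transcription factor gene Tcf21 was at 408 and 502 CPM. Abcc9, a regulatory subunit of potassium channels, was at 474 and 588 CPM. Adamtsl2, a secreted glycoprotein of microfibrils, was at 542 and 711 CPM.

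Some classical markers of rest gave few UMIs. Gfap, an intermediate filament long used to stain stellate cells in rodents, gave 3 UMIs in Tom- and 6 in Tom+ members. Rgs4 gave 4 and 8 UMIs. Pparg, a nuclear receptor tied to lipid storage, gave 1 and 1. In the whole series Gfap gave 158 UMIs, so for Gfap low probe yield and low expression cannot be told apart. Per UMI, Gfap was still more frequent in members than in the whole series.

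Of 9 retinoid genes tested against other window cells, 3 were 2-fold higher in members, beside 23.8% of all genes, Cyp26b1 (a retinoic acid hydroxylase) and Rarb (a retinoic acid receptor) among them, and the median log2 difference was -0.01 in Tom- and -0.02 in Tom+. Aldh1a1, a retinaldehyde dehydrogenase that hepatocytes also express, was at 242 and 394 CPM, -0.29 and 0.02 from the other window cells. Plin2, a coat protein of lipid droplets, was at 226 and 179 CPM. Stra6 and Crabp1 were at 0 in members, with 1 and 0 UMIs in the whole series.

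Detection per cell was compared after thinning every cell to 2000 UMIs, which left 140 Tom- and 85 Tom+ members (18 and 7 were shallower). Ecm1 was then found in 69.3% of Tom- and 81.2% of Tom+ members, against 13.1% and 13.8% of endothelial cells (107 and 130 cells). Before thinning it was found in 131 of 158 and 79 of 92 members. Hgf was found in 60.0% and 69.4% of members, but also in 50.5% and 39.2% of endothelial cells, which are known to make it too.

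The activation list was carried by matrix genes. Of 22 genes tested, 21 were at least 2-fold higher in members than in the other window cells of both libraries (median log2 difference 5.37 and 5.72), beside 23.8% of all genes, and Col5a3 was the other. Against the endothelial set 13 of 16 were higher and none lower, beside 6.55% and 7.91% of all genes. Col1a2, the second chain of type I collagen, was at 5129 CPM in Tom- and 4981 CPM in Tom+. Sparc, a collagen-binding matrix protein, was at 1887 and 1920 CPM. Ctgf (Ccn2), a matricellular protein induced by TGF-beta and by stretch, was at 1710 and 1974 CPM. These 3 supplied 70.6% of activation UMIs in both libraries, so the activation sum mostly follows them.

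Sparc and Ctgf were not restricted to members, at only 0.74 and 1.27 above the endothelial set in Tom- and 0.66 and 0.89 in Tom+ (log2). Col1a2 was 7.18 and 6.68 above that set. After thinning Col1a2 was found in 99.3% and 95.3% of members, and in 6.54% and 6.15% of endothelial cells. Further fibrillar and microfibrillar collagens were plain in members, with Col6a3 at 801 and 806 CPM and Col5a1 at 596 and 672 CPM.

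Genes that modify or respond to matrix were also measured. Pdgfrb, the receptor that drives stellate cell proliferation and migration, was at 332 CPM in Tom- and 415 CPM in Tom+. Mmp2, a gelatinase, was at 235 and 230 CPM. Loxl2, a collagen cross-linking enzyme, was at 114 and 131 CPM. Postn (periostin) was at 79.5 and 116 CPM, and Lum (lumican) at 151 and 158 CPM.

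Of 11 contractile genes tested, 11 were at least 2-fold higher in members than in other window cells, beside 23.8% of all genes. The contractile list took 0.230% of UMIs in Tom- and 0.228% in Tom+ members, against 0.0332% and 0.0360% in the other window cells. Against the endothelial set 6 of 9 were higher and none lower, beside 6.55% and 7.91% of all genes. Acta2 and Timp1, the usual markers of activation, gave few UMIs. Acta2, the smooth muscle actin that defines the activated state in most stains, gave 6 UMIs in 4 Tom- members and 2 UMIs in 2 Tom+ members. Timp1, an inhibitor of matrix metalloproteinases, gave 7 and 3 UMIs. A UMI of either was found in 10 Tom- and 5 Tom+ members. In all barcodes together Acta2 gave 261 UMIs and Timp1 180, so both gave few UMIs, and low probe yield and low expression cannot be told apart. Members held only 629144 (Tom-) and 334850 (Tom+) of the 681279005 and 715333889 UMIs of the libraries. Per UMI both genes were therefore more frequent in members than in the whole series. The 5 cells with the most Acta2 UMIs in the series (6 to 12) all lay outside the gene window, above its upper limit, and had rule shares of at most 0.252%. They were deep, at 14307 to 137210 UMIs, and held 6 to 86 UMIs of the rule genes and 7 to 51 of Tagln. Members had a median of 32 rule UMIs, or 33 where Lrat, Reln and Colec11 were all at 0. The low share of these cells therefore did not mean an absence of rule transcripts.

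Other myofibroblast genes gave more UMIs. Tagln (transgelin, an actin-binding protein) was at 192 CPM in Tom- (121 UMIs) and 116 CPM in Tom+ (39 UMIs), and Mylk (myosin light chain kinase) at 525 and 633 CPM. Des (desmin), a filament of stellate and muscle cells, was at 103 and 134 CPM. Thy1 and Grem1 had no UMI, which at a floor of 3 counts allows up to 4.77 CPM in Tom- and 8.96 CPM in Tom+. Grem1 had none in the whole series, and Cthrc1, a marker of collagen-rich myofibroblasts, had 1 UMI in members and 3 in the series.

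**Figure D3:**
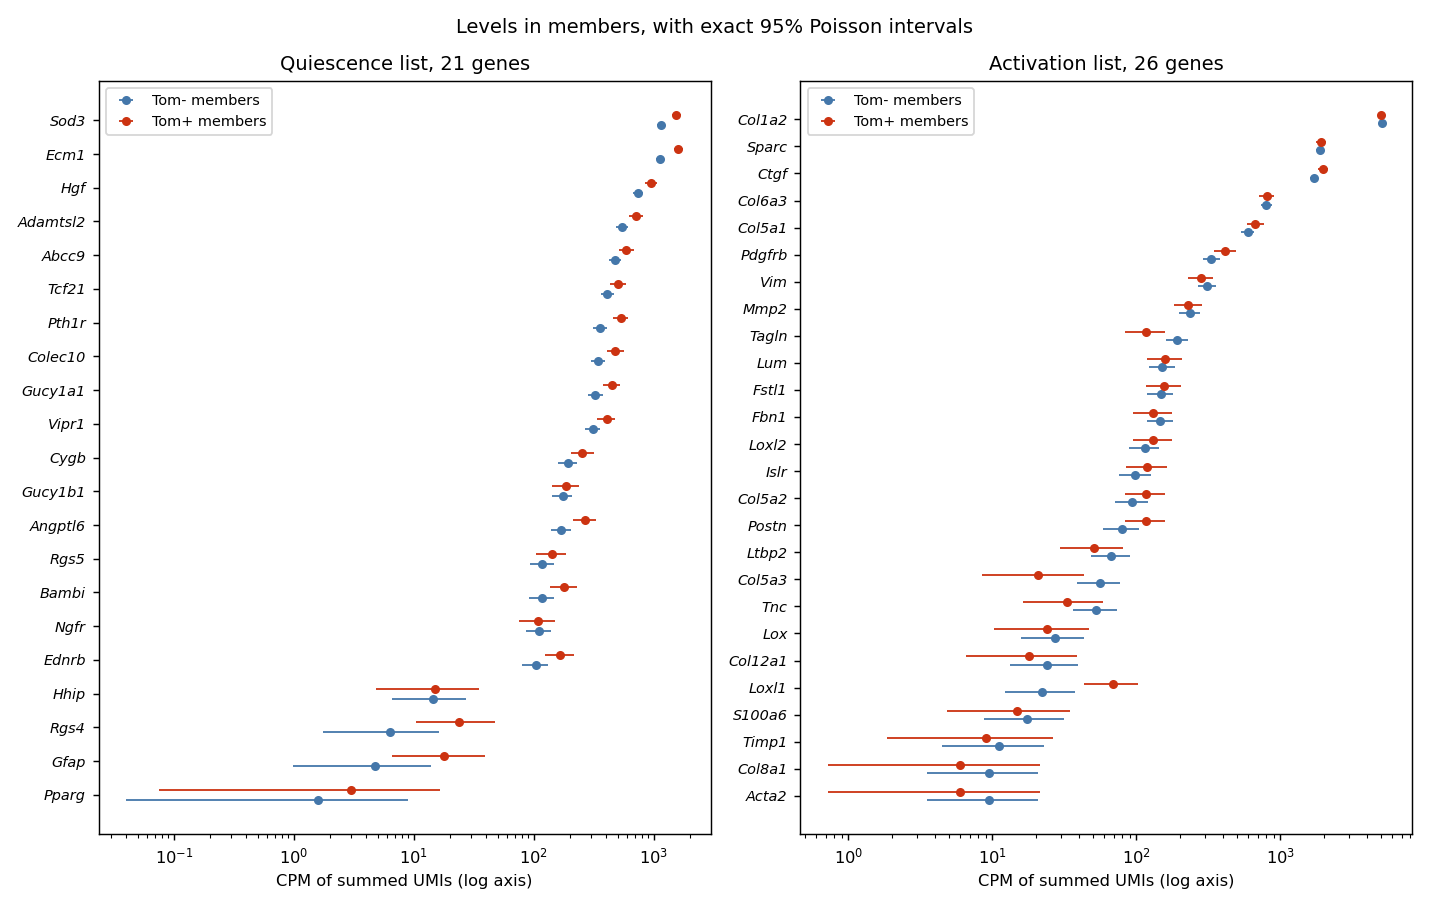
Levels of 21 of the quiescence genes (left) and 26 of the activation genes (right) in members, as CPM of summed UMIs on a log axis, with exact 95% Poisson intervals; blue is Tom-, red is Tom+. Most quiescence genes lie further right in Tom+ (Ecm1 at 1130 and 1601 CPM), while Col1a2 nearly coincides (5129 and 4981 CPM).

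The bases before the start of 4 of these genes are shown to place motifs known from gene control beside levels that differ widely among members. Ecm1 and Adamtsl2 are quiescence genes that were highest in different subclusters of members, Col3a1 is a gene of the rule found in nearly every member, and Timp1 gave 10 UMIs in all. Each line holds the 250 bases before the RefSeq start (GRCm38.p6, the build that mm10 names), 5′ to 3′ on the gene's strand, and capitals mark matches on either strand to the TATA box (TATAAA), the CCAAT box (CCAAT) and the AP-1 site (TGANTCA). Their genes lie on mm10 as Ecm1 on chr3:95734147-95739569, Adamtsl2 on chr2:27079379-27108981, Col3a1 on chr1:45311538-45349706 and Timp1 on chrX:20870166-20874735. The shown stretch of Ecm1 covers chr3:95739570-95739819 (minus strand), Adamtsl2 chr2:27079129-27079378 (plus), Col3a1 chr1:45311288-45311537 (plus) and Timp1 chrX:20869916-20870165 (plus).
Ecm1: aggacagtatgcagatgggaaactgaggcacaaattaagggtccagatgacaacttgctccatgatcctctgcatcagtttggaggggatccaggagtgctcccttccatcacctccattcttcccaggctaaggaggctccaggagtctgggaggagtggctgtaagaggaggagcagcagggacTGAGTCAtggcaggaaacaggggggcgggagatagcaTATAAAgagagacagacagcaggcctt
Adamtsl2: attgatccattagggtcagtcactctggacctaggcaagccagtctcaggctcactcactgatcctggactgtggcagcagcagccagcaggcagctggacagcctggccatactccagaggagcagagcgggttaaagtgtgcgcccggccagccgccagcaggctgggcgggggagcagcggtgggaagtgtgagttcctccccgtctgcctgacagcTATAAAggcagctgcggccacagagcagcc
Col3a1: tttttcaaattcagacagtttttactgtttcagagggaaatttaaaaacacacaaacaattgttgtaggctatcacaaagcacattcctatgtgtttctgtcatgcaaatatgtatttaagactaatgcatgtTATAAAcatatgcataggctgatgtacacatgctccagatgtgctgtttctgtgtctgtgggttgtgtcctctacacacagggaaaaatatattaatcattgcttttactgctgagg
Timp1: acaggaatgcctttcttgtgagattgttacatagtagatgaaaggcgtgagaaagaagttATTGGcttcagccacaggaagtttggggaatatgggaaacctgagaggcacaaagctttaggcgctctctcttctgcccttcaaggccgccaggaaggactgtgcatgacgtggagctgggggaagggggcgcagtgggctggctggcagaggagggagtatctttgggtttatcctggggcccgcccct
TATAAA occurred 27 to 22 bases before the start in Ecm1 and 30 to 25 bases before it in Adamtsl2, and further upstream, at 117 to 112 bases, in Col3a1. Ecm1 also held TGAGTCA, the AP-1 consensus, at 64 to 58 bases. Timp1 held the reverse complement of CCAAT at 190 to 186 bases and no TATAAA. Of 32851 RefSeq promoters read over the same 250 bases, 12.4% held the TATA box, 33.8% the CCAAT box and 6.75% the AP-1 site. The CArG box of serum response factor, found in 1.47% of promoters, was in none of the 4. The motifs overlapped nowhere, and these matches are descriptions of letters, not of binding.

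Matrix genes beyond the activation list showed what else these cells make. Of 10 basement membrane genes tested, 10 were at least 2-fold higher in members than in other window cells, beside 23.8% of all genes, but only 5 of 10 were higher than in the endothelial set and 1 was lower, beside 6.55% and 7.91%. Col4a1, the main basement membrane collagen, was at 2486 CPM in Tom- and 2873 CPM in Tom+, 0.00 and 0.14 above the endothelial set on the log2 scale. Lama1 and Lamb1 (laminin chains) separated the cell types, with Lama1 at 197 and 209 CPM and 7.13 and 5.82 above the endothelial set. Collagen processing genes were 2-fold higher than in other window cells in 18 of 19 tested, beside the same 23.8%, among them Serpinh1 (the collagen chaperone HSP47), at 591 and 753 CPM. The small proteoglycan Bgn (biglycan) was at 1481 and 1786 CPM, 2.63 above the endothelial set in both libraries.

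Signals that members could send included Igfbp7 (3219 and 3829 CPM), a secreted growth factor binding protein that endothelial cells expressed as highly (-0.24 and -0.01 on the log2 scale). Cxcl12, the ligand of CXCR4, was at 1461 CPM in Tom- and 1711 CPM in Tom+, 3.47 and 3.80 above the endothelial set. Bmp5 was at 388 and 588 CPM, and Rspo3, an enhancer of Wnt signalling, at 172 and 224 CPM. Il34, a ligand of the macrophage receptor CSF1R, was at 189 and 194 CPM. Tgfb1, the main fibrogenic cytokine, was at 60.4 and 35.8 CPM and stood below the endothelial set by 1.58 and 2.44.

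The study asked which signals pass from hepatocytes to stellate cells, and the receptors of the leukemia inhibitory factor (LIF) family were therefore read in members. Lifr, the ligand-binding chain, was at 916 CPM in Tom- (576 UMIs in 154 of 158 cells) and 875 CPM in Tom+ (293 UMIs in 86 of 92 cells). This was slightly under the other window cells (log2 difference -0.24 and -0.18) and under the endothelial set (-0.71 in both). The Kupffer set, whose hepatocyte share was close to that of the members (8.63% and 7.36%, against 9.03% and 7.50%), had Lifr at 465 CPM and 471 CPM. At 2000 UMIs per cell Lifr was found in 89.3% and 82.4% of members and in 54.5% and 63.2% of Kupffer cells. How much of the Lifr in members came with hepatocyte RNA was not tested further. Il6st, the shared gp130 chain, was at 482 and 529 CPM, above the other window cells by 1.90 and 1.83 but below the endothelial set by 1.05 and 0.85. Osmr, the oncostatin M receptor, was at 118 and 102 CPM, 3.88 and 3.35 above the other window cells. Jak1, a kinase of this pathway, was at 105 and 77.7 CPM, and its substrate Stat3 at 108 and 149 CPM.

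Ligands of this family gave few UMIs in members, as in other cells. The ligand list took 0.00350% of UMIs in Tom- and 0.00329% in Tom+ members, against 0.00209% and 0.00234% in the other window cells. Lif gave 2 UMIs in Tom- and 1 in Tom+, Ctf1 (cardiotrophin-1) 6 and 2, Il6 4 and 0, and Osm none in either, against 166 (Lif), 9396 (Ctf1), 225 (Il6) and 46 (Osm) UMIs in the whole series. The members held 629144 (Tom-) and 334850 (Tom+) of the 681279005 and 715333889 UMIs of the libraries. Per UMI, Lif and Il6 were therefore more frequent in members than in the series and Ctf1 about as frequent, on very few UMIs. Of the 10 LIF family receptor and pathway genes tested, 5 were 2-fold higher in members than in other window cells and none 2-fold lower, beside 23.8% and 2.87% of all genes. The 5 were Il6st, Osmr, Cntfr, Jak2 and Socs3. None of 9 was 2-fold higher than in the endothelial set and 1 (Jak1) was lower, beside 6.55% and 7.91% of all genes, so these counts are near the background.

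Of 18 growth factor receptors tested, 16 were at least 2-fold higher in members than in the other window cells, beside 23.8% of all genes. The endothelial set carried the list nearly as highly, at 0.264% and 0.257% of UMIs against 0.277% in Tom- and 0.323% in Tom+ members, and of 16 genes tested against it 7 were higher in members and 2 lower, beside 6.55% and 7.91% of all genes. Pdgfra was at 218 CPM in Tom- and 215 CPM in Tom+. Agtr1a, the angiotensin receptor, was at 288 and 370 CPM, and Ednra, an endothelin receptor, at 116 and 191 CPM. Egfr, which hepatocytes express, was at 184 and 188 CPM and -0.24 and -0.01 from the other window cells, and at 95.1 and 82.6 CPM in the Kupffer set.

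Of 4 cell cycle genes tested, 2 (Mcm2 and Cdk1) were 2-fold higher in members than in other window cells, beside 23.8% of all genes, and the list took 0.0141% of UMIs in Tom- and 0.0146% in Tom+ members, against 0.00968% and 0.00988% in the other window cells. The list was larger in the other sets, at 0.0531% and 0.0508% in the Kupffer set and 0.0400% and 0.0269% in the endothelial set. Of 3 genes tested against the Kupffer set 2 were lower in members and none higher, beside 9.52% and 10.1% of all genes. Among senescence genes, Cdkn2a, the locus that encodes p16Ink4a, and Cdkn2b had no UMI in any member, which allows up to 4.77 CPM in Tom- and 8.96 CPM in Tom+; over the whole series Cdkn2a gave 543 UMIs. Cdkn1a (p21) was at 62.0 and 47.8 CPM. Gdf15, a stress-induced cytokine, was at 304 and 272 CPM, 1.00 and 1.16 below the other window cells.

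Members were grouped by their own expression into 6 subclusters, with the rule genes left out of the clustering. Leading genes are those with the largest log2 ratio of summed CPM to all other members, and they define the groups, so they are not results. Both libraries contributed to each subcluster. A coarser setting gave 4 groups, in which 57 cells of subcluster 1 and 36 of subcluster 3 fell into 1 group of 97, and 51 of subcluster 2 and 32 of subcluster 6 into 1 group of 85. A finer setting gave 8 groups and kept at least 29 cells of each subcluster together. Of subcluster 2 it kept only 31 of 52 cells together, and of subcluster 4 29 of 37. Subclusters 1 and 3, and 2 and 6, were therefore separate at the chosen and the finer setting but not at the coarser one. A marker was taken as raised in a subcluster at 3 UMIs or more and 1.5-fold the level of the other members. Among all genes with 3 UMIs or more in the subcluster, 22.5% passed this in subcluster 1, 23.6% in 2, 24.3% in 3, 23.3% in 4, 21.4% in 5 and 36.2% in 6.

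Subcluster 1 (57 cells, 31 Tom- and 26 Tom+) was quiescent-stellate-like, with 16 of the 22 quiescence genes that had 3 UMIs or more raised (beside 22.5% of all genes) and Pth1r among its 10 leading genes. Its first 5 leading genes were Zbtb8b, Mest, Fam84a, Tnfrsf11b (osteoprotegerin) and Notch3. The quiescence list took 1.45% of its UMIs. Sod3 was at 3018 CPM, Ecm1 at 2530 CPM and Pth1r at 1072 CPM. Ngfr (244 CPM), Il34 (464 CPM) and Itgb3 (411 CPM), which mark stellate cells near portal veins, were also highest there. Activation genes were present too, with 9 of 22 raised, and Tagln (292 CPM), Postn (187 CPM), Col5a1 (1043 CPM), Loxl2 (220 CPM) and Sparc (2492 CPM) stood higher than in the other subclusters. It also held 5 of the 8 Acta2 UMIs of all members, and its activation share was 1.19%. The contractile list took 0.331% of its UMIs, against 0.102% to 0.272% elsewhere, and Myh11 was at 90.9 CPM, the highest value of the 6. The portal-vein stellate list of 5 genes took 0.211% of UMIs, against 0.0239% to 0.103% elsewhere.

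Subcluster 2 (52 cells, 28 and 24) was led by Mgp, C7, Nr4a1, Egr1 and Svep1. Mgp is an inhibitor of matrix calcification, C7 a complement component, and Nr4a1 and Egr1 are genes induced within minutes of a stimulus. Mgp was found in only 7 of its 52 cells (81 UMIs) and Nr4a1 in 5, while Gsn was found in 41. Gsn was at 3008 CPM and Adamtsl2 at 1454 CPM. Of the portal fibroblast markers all 7 with 3 UMIs or more were raised (beside 23.6% of all genes), although Thy1 was at 0 and Entpd2 gave 2 UMIs. Of 25 activation genes 11 were raised (10 of 22 in subcluster 6), and the list took 1.45% of UMIs. A list of stellate genes near central veins (Adamtsl2, Rspo3, Spon2, Podn and Loxl1) took 0.202% of its UMIs, the highest value of the 6. Most of this was Adamtsl2, with 249 UMIs against 10 to 33 for each of the others. Rspo3 was highest in subcluster 3 and Loxl1 in subcluster 6. The leading genes and lists of subcluster 2 pointed to no single name and none was given.

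Subcluster 6 (33 cells, 22 and 11) had the highest levels of Col1a1, Col1a2 and Col3a1 and, with subcluster 5, the lowest quiescence share. It was led by Adgrd1, Col6a5, Plcxd3, Pex5l and Col6a6, 2 of them type VI collagen chains. The activation list took 1.91% of UMIs and the quiescence list 0.397%. Raised were 10 of 22 activation genes and 5 of 6 portal fibroblast markers, beside 36.2% of all genes. Col1a2 was at 11769 CPM, Col1a1 at 7346 CPM, Dpep1 at 727 CPM and Dpt at 656 CPM. Wt1, a transcription factor of the mesothelium and of some fibroblasts, was at 417 CPM. Ltbp2, a microfibril protein, was at 372 CPM, against 0 to 64.2 CPM in the other subclusters. Acta2 gave 1 UMI there and Timp1 none.

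Subcluster 3 (37 cells, 27 and 10) had weak leading genes (Pcdhgb4, Epha7, Abhd11, Ttpal and Rnf6) and lay between the others, with quiescence at 0.933% and activation at 1.11%. Raised were 3 of 19 quiescence and 2 of 20 activation genes, beside 24.3% of all genes. Hand2 was at 1091 CPM there and Rspo3 at 373 CPM, the highest values of the 6.

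Subcluster 4 (37 cells, 24 and 13) carried RNA of other cell types. Its median depth was 5905 UMIs, and it was led by Timd4, Kit, Clec9a, Pld4 and Adgre1, most of them genes of macrophages or dendritic cells. All 8 Kupffer and all 11 endothelial genes were raised, beside 23.3% of all genes. The Kupffer list took 0.564% and the endothelial list 0.240% of its UMIs, and it held 77.7% of all Kupffer and 68.4% of all endothelial UMIs found in members. Collagen stayed high, with Col1a2 at 4227 CPM. Its part in the results was measured by leaving it out.

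Subcluster 5 (34 cells, 26 and 8) was shallow and rich in hepatocyte RNA. Its median was 2105 UMIs, the hepatocyte list took 14.7%, and 9 of 10 hepatocyte and 4 of 11 endothelial genes were raised, beside 21.4% of all genes. The other subclusters had 6.97% to 8.52% on the hepatocyte list, and the window cells outside members and both sets 15.7% and 14.8%. The identity factors took 0.0855% of UMIs, against 0.214% to 0.340% elsewhere. Whether these were stellate cells or hepatocyte profiles carrying stellate RNA was not tested. Leading genes were Ces3b, Cyp2c23, Thrb, Ubxn8 and Ppa1. Quiescence (0.393%) and activation (0.862%) were both low, and Col1a2 was at 5103 CPM.

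**Figure D4:**
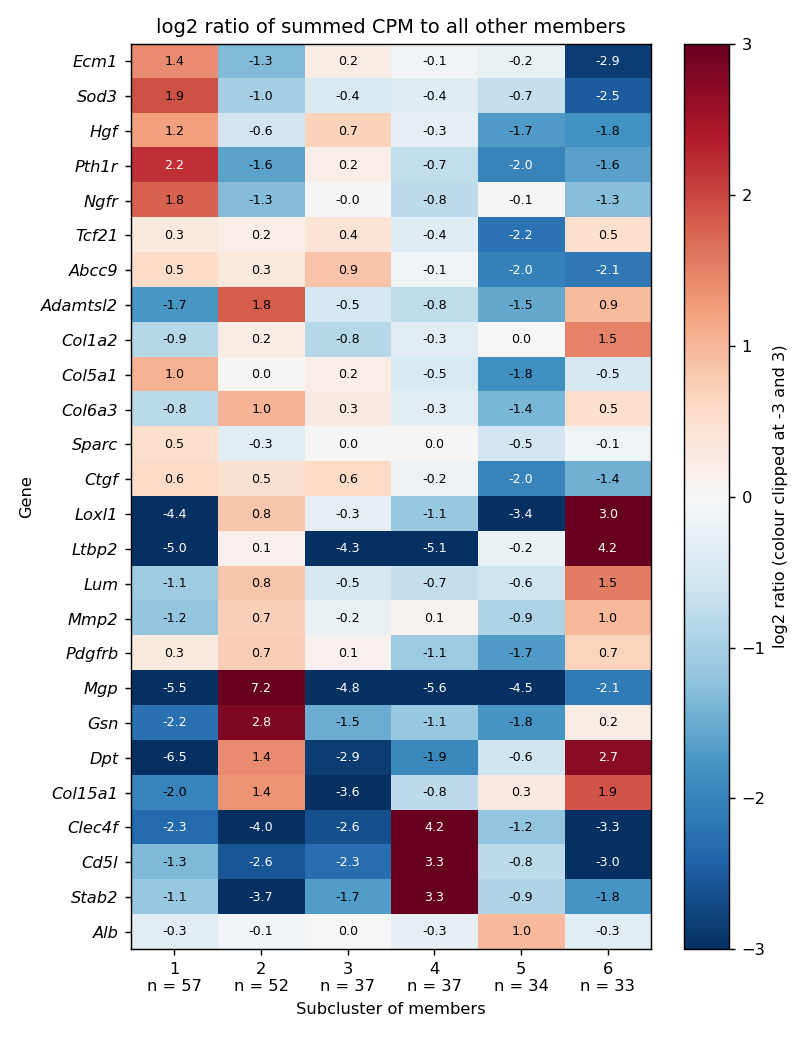
Log2 ratio of summed CPM in each of the 6 subclusters (columns, with the number of cells) to all other members (0.5 UMI added, so genes at 0 show negative values) for 26 genes (rows); red is higher, blue is lower and the colour stops at 3 in either direction. Ecm1, Sod3 and Pth1r stand out in subcluster 1, Mgp and Gsn in 2, Ltbp2, Dpt and Col1a2 in 6, and Clec4f, Cd5l and Stab2 in 4.

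Members without any UMI of Lrat, Reln or Colec11, the more stellate-restricted genes of the rule, were looked at apart. Of these 28 cells (21 Tom- and 7 Tom+), 16 were in subcluster 6, whose other 17 cells carried such a UMI. Their depth (median 3076 UMIs) was near that of the other 222 members (3378 UMIs). Their quiescence share was 0.358%, against 0.859% in the others, and their activation share 1.82% against 1.18%. Dpt was at 538 CPM against 127 CPM, and Hgf at 134 against 880 CPM. The split uses genes of the rule, and a cell without these 3 genes needed more of the others to enter, so it is a description and no test.

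The Tom- and Tom+ members were then set side by side, which compares 2 libraries and not conditions. Of 8132 genes measured, 148 (1.82%) were at least 2-fold higher in Tom+ and 103 (1.27%) at least 2-fold lower with a 95% interval of the ratio past 0. With a median-of-ratios scaling the split was 109 higher and 138 lower, so 44.1% of the counted genes were higher in place of 59.0%. Without subclusters 4 and 5 it was 93 higher and 104 lower, so which side held more genes depended on the cells and the scaling. The counted genes had a median of 39 UMIs in all, only 3 of the 251 reached 200 CPM in either library, and the intervals were not adjusted for the number of genes, so single genes among them carry little weight. Without subcluster 4, 130 genes were counted as higher and 102 as lower. Of the 148 and 103, 68 and 48 were still counted, while 34 and 28 fell under the filter on UMIs and level, and 15 and 14 kept a 2-fold ratio with an interval that reached 0. Ifi206, at a log2 ratio of 2.00 over all members, was at 2.48 without subcluster 4 but had too few UMIs (16) to be counted.

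The largest differences rested on few cells. Mgp was at 14.3 CPM in Tom- (9 UMIs in 5 cells) and 221 CPM in Tom+ (74 UMIs in 4 cells), with 72 of these 74 UMIs in 2 cells. Col6a5, a collagen VI chain, had 39 UMIs in 7 Tom- members (23 of them in 1) and none in Tom+, at least 6.92-fold lower against a floor of 3 counts in Tom+. The next genes on the higher side were Ifi206, Hoxa3, Tmem191c, Fgf12, Mmab, Rabgef1, Prkab1, Spg11 and Zfp945, with log2 ratios from 1.68 to 2.00. On the lower side were Marco, Clec1b, Fosb, Fam102b, Atad2, Mob3b, Colec12 and Mfsd2a. Marco, a scavenger receptor of Kupffer cells, had 91 and 4 UMIs.

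Genes of other cell types moved with the lower side. Of the 103 lower genes, 26 were at least 2-fold lower in members than in the Kupffer or endothelial set, as were 7 of the 148 higher genes and 9.31% of all genes tested. Of the 11 endothelial genes, 5 (Pecam1, Stab1, Kdr, Oit3 and Dnase1l3) were counted as lower in Tom+ (median log2 ratio of the 11, -1.02), and of 7 Kupffer genes tested Timd4 and Marco were lower and Adgre1 higher, beside 1.27% (lower) and 1.82% (higher) of all genes tested between the libraries. Their part in the other differences was not tested beyond leaving out subcluster 4.

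None of the 19 quiescence genes tested passed the 2-fold rule between libraries, beside 1.82% and 1.27% of all genes. Yet 18 of the 19 were higher in Tom+, with a median log2 ratio of 0.42 against 0.09 over all genes tested. The summed list was higher in Tom+ by 0.43 (95% interval 0.36 to 0.49) on the log2 scale. Within each of the 6 subclusters the quiescence share was also higher in Tom+, from 1.33% to 1.62% in subcluster 1 and from 0.669% to 0.682% in subcluster 2. Among only the 100 cells with the highest rule share the log2 ratio was 0.13 (0.03 to 0.24), and without subclusters 4 and 5 it was 0.25 (0.17 to 0.32). Hepatocyte RNA was lower in Tom+ members (7.50% against 9.03%), and among the 125 members under the median hepatocyte share the ratio was 0.32 (0.24 to 0.41). These were 66 Tom- and 59 Tom+ members, not matched for hepatocyte share. The part of hepatocyte RNA in the quiescence difference was not tested. With 1 library on each side, a difference between sorts, mice or preparations cannot be told apart.

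Single quiescence genes moved in the same direction by similar amounts. Ecm1 was higher in Tom+ by 0.50 (0.34 to 0.67), Sod3 by 0.42 (0.26 to 0.59), Pth1r by 0.57 (0.28 to 0.86) and Hgf by 0.36 (0.15 to 0.57) on the log2 scale. Ngfr differed by -0.03 (-0.65 to 0.57). Among the transcription factors Lhx2 was higher by 0.85 (0.35 to 1.35) and Hand2 by 0.30 (0.07 to 0.52). All 12 identity factors tested had a ratio above 0, with a median of 0.44 against 0.09 over all genes tested. Of the 12, 1 was counted as 2-fold higher, beside 1.82% of all genes.

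The activation list did not differ between libraries beyond counting error, at 0.03 on the log2 scale (-0.03 to 0.08). Of 23 genes tested, 12 had a ratio above 0, 1 was counted as higher and 2 as lower, beside 1.82% and 1.27% of all genes. Loxl1, a cross-linking enzyme of elastic fibres, was higher in Tom+ (14 and 23 UMIs, log2 ratio 1.63, 0.61 to 2.70). Col5a3, a chain of type V collagen, was among the lower (35 and 7 UMIs). Tagln was lower by less than 2-fold (-0.72, -1.28 to -0.19). With the same share of window cells taken from each library the list ratio was 0.24 (0.19 to 0.30), and among the 100 top cells it was -0.20 (-0.27 to -0.12), so its direction depended on the choice of cells.

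**Figure D5:**
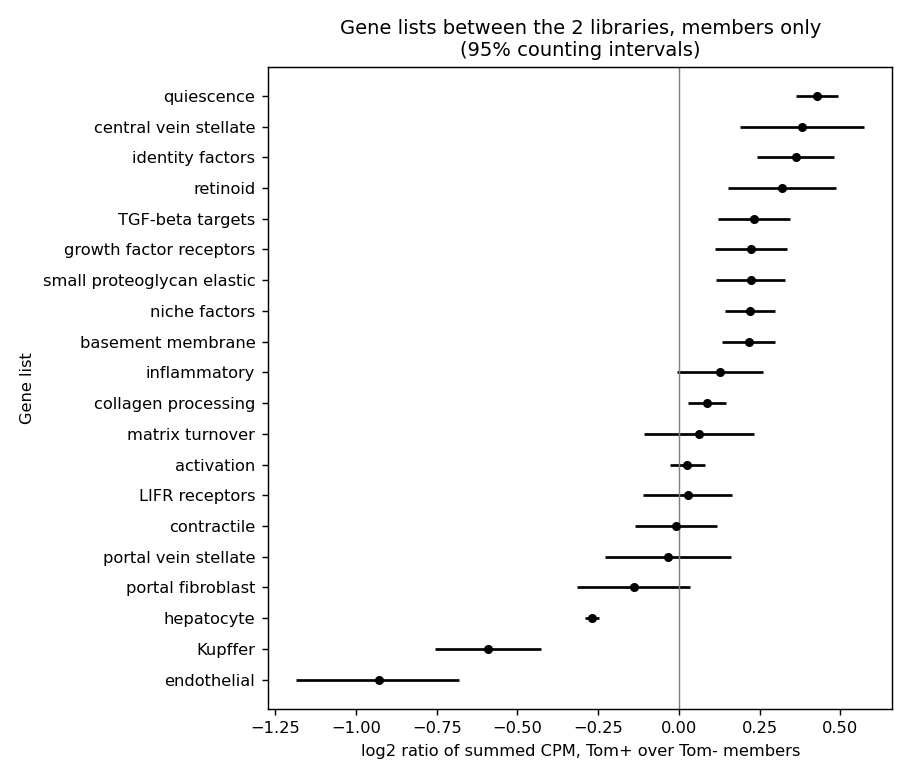
Log2 ratio of the summed CPM of 20 gene lists, Tom+ over Tom- members (horizontal axis), with exact conditional 95% intervals that cover counting error only; the grey line marks no difference. The quiescence list (0.43) and the identity factors (0.36) lie above 0, the activation list (0.03) at 0, and the hepatocyte (-0.27), Kupffer (-0.59) and endothelial (-0.93) lists below.

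Other lists lay on both sides of 0. The identity factors were higher in Tom+ by 0.36 (0.24 to 0.48) and the basement membrane genes by 0.22 (0.13 to 0.30). The LIF family receptors (0.03, -0.11 to 0.17) and the contractile genes (-0.01, -0.14 to 0.12) did not differ beyond counting error. The portal-vein stellate list was at -0.03 (-0.23 to 0.16) and the central-vein list at 0.38 (0.19 to 0.57), of which Loxl1 and Adamtsl2 are members. The smooth muscle list was at -0.95 (-1.85 to -0.13), on only 58 and 16 UMIs.

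The tdTomato transcript was higher in Tom+ members. It gave 48 UMIs in Tom- members (76.3 CPM, 56.3 to 101) and 99 in Tom+ members (296 CPM, 240 to 360), a log2 ratio of 1.95 (1.44 to 2.48). The ratio was 1.99 (1.45 to 2.56) in the endothelial set and 1.78 (1.28 to 2.30) in the Kupffer set, with intervals that overlap that of the members. In the window cells outside these sets it was 3.05 (3.02 to 3.08), from 113 to 936 CPM, above the interval of the members. That difference depended on which cells were taken, since the ratio was 3.04 (2.01 to 4.24) among the 100 cells with the highest rule share, 2.46 (1.85 to 3.11) without subcluster 4 and 2.76 (2.01 to 3.59) without subclusters 4 and 5, and each of these intervals includes 3.05. Under the other choices of cells the ratio ran from 1.65 (0.89 to 2.45, members below the median hepatocyte share) to 2.31 (1.86 to 2.79, with the upper gene limit raised), with intervals below 3.05.

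At least 1 tdTomato UMI was found in 29 Tom- members (18.4%, 12.7 to 25.3) and 53 Tom+ members (57.6%, 46.9 to 67.9). Per 1000 Alb UMIs, Tom+ members held 5.45 tdTomato UMIs (4.43 to 6.64), the Kupffer set 4.36 (3.44 to 5.45), the endothelial set 8.62 (7.33 to 10.1) and the remaining window cells 8.90 (8.80 to 9.01). How much of the tdTomato in members came with hepatocyte RNA was not tested. In subcluster 4 the 2 libraries were alike, at 124 CPM (73.5 to 196) and 136 CPM (65.0 to 249), on 18 and 10 UMIs. In each of the other subclusters tdTomato was higher in Tom+, at 261 to 620 CPM against 31.7 to 126 CPM in Tom-.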

How the data were processed

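Single cells of 2 libraries (Tom- and Tom+, 1 each) were measured with a fixed-RNA probe kit with added tdTomato probes. The submitters' processing notes name Cell Ranger 7.2.0 and mm10 for the UMI counting by the authors, and the deposited matrices hold raw counts for 19073 features. The members and gene lists were chosen with earlier results of these data known. Counts of a library were added up over the cells of a set and scaled to CPM. CPM and the list shares of UMIs per library have exact Poisson intervals, and shares of cells have Clopper-Pearson intervals. Ratios to other cells used 0.5 added UMI; genes needed 10 CPM on either side and 20 UMIs. Between libraries a gene was counted at 2-fold when the exact conditional 95% interval also lay past 0. No test was made. Depths are in the report. Subclusters came from scanpy 1.11.5 and leidenalg 0.10.2 (counts scaled to 10000, log, 1000 variable genes without rule genes, 15 components, 15 neighbours, resolution 0.8). Named genes were those of the lists, the 20 largest differences from other window cells, the 10 largest on each side between libraries and the first 5 leading genes of each subcluster, besides the custom features. Scripts were tested on simulated data (Python 3.11.15, numpy 2.4.6, scipy 1.17.1, pandas 2.3.3). Alternatives covered the gene and mitochondrial limits, the number and markers of members, depth, scaling and resolution. Some genes of the lists are not reported here.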

Additional observations from a re-analysis of the deposited data

Results flagged for a closer look

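Cells outside the gene window were not used in any comparison, yet some reached the rule share of the members. In the Tom+ library these were 59 of 13087 cells, or 0.4508% (0.343 to 0.581), and in the Tom- library 36 of 14545, or 0.248% (0.173 to 0.342). Of the Tom+ cells 56 had under 1000 genes and 3 had over 4500, and of the Tom- cells 30 and 6.

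The custom LINE-1 feature, L1Md_A, belongs to no comparison of the report. It was at 6083 CPM in Tom+ members and 5088 CPM in Tom- members, a log2 ratio of 0.26 (0.18 to 0.34).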

How the results depend on the processing

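No paired analysis was possible because Tom- and Tom+ were 1 library each, and for the same reason no replicate could be left out. Of 124 alternative values for 11 results, 65 stayed within the 95% counting interval of the reported value, or within 1.5 times for counts, and 59 moved; none was a called ratio that changed sign, but lower genes outnumbered higher ones without subclusters 4 and 5 and with median-of-ratios scaling. The quiescence list was higher in Tom+ members in 12 of 12 alternatives, from 0.13 to 0.54 on the log2 scale, and the activation list was higher in 8 and lower in 4. The reported values over both libraries were 0.812% of UMIs for quiescence, 1.24% for activation and 8.50% for hepatocyte genes, and 36.8% of members were Tom+. Below, these shares come in this order, then the Tom+ over Tom- log2 ratio of the quiescence and of the activation list.

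With 2000 to 4500 genes the shares were 0.646%, 0.796% and 10.9%, the ratios 0.28 and 0.13, and 30.0% of members were Tom+. With the upper gene limit raised they were 0.765%, 1.21% and 8.95%, and the quiescence ratio 0.54. With 100 members they were 0.786%, 1.71% and 7.78%, the ratios 0.13 and -0.20, the genes higher in Tom+ 90 and the tdTomato log2 ratio 3.04. With 500 members they were 0.652%, 0.839% and 10.6%, and the ratios 0.32 and 0.15. With the same share of window cells from each library quiescence was 0.776%, hepatocyte genes 8.73%, the ratios 0.31 and 0.24, and 27.2% of members were Tom+. Without Col1a1 and Col3a1 in the rule the shares were 0.921%, 0.936% and 8.89%, and the ratios 0.22 and 0.10. Without Lrat, Reln and Colec11 they were 0.716%, 1.22% and 8.82%, and the quiescence ratio 0.50. Members of at least 3000 UMIs had 0.837% quiescence and 8.38% hepatocyte genes. Members under the median hepatocyte share had 0.977%, 1.44% and 5.97%, ratios of 0.32 and -0.15, and 47.2% were Tom+. Thinning gave 0.865% and 1.29%, and the mean of per-cell shares 0.836% and 1.27%. A minimum of 50 CPM left 66 genes lower in Tom+.

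Leaving out subclusters was chosen after seeing the data. Without subcluster 4 the shares were 0.851%, 1.29% and 8.81%. Without subclusters 4 and 5 they were 0.938%, 1.38% and 7.69%, the ratios 0.25 and -0.10, the genes higher in Tom+ 93 against 104 lower, and the tdTomato log2 ratio 2.76. The cause of these shifts was not tested, beyond that fewer or other cells entered each sum. With medians of 3435 and 3250 UMIs per member, genes under about 10 CPM could not be compared.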

Other observations

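The custom p16 entry gave 0 UMIs in Tom- and 1 in Tom+ members. Mki67 and Top2a, genes of dividing cells, gave 1 and 3 UMIs in Tom- and 3 and 2 in Tom+ members.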
